A study of Mus musculus with 14 samples.

Results

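The genes described here encode the machinery with which a cell digests its own content: 18 genes of the autophagy core, 11 of the lysosomal membrane and lysosomal hydrolases, and 8 subunits of the V-ATPase, the proton pump that acidifies lysosomes. They were chosen by name, 37 symbols in all, and 35 were matched to rows of the array table among 19505 named genes. All 18 autophagy genes, 10 of the 11 lysosomal genes and 7 of the 8 pump subunits were measured; Ctsd and Atp6v0c were not analysed here. The question was whether RNA of these genes differed in liver when the catalytic subunits of AMP-activated protein kinase (AMPK) were deleted from hepatocytes.

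Liver RNA came from 14 samples of male mice on a C57BL/6 background, labelled as 4 months old, homozygous for floxed AMPK alpha1 and alpha2, so that Cre recombinase can cut both genes (Prkaa1 and Prkaa2). From 6 weeks of age they ate a high-fat diet (60% of calories) for 4 weeks. At 10 weeks an AAV8 vector was injected, an adeno-associated virus whose TBG promoter is active in hepatocytes. It was empty in the 6 control samples and carried Cre in the 8 knockout samples. Metformin, a drug that lowers blood glucose, was given to both groups for 3 weeks at 50 mg/kg/day, and livers were taken after a 16 h fast. No group without metformin was analysed here, and the labels do not say whether each sample was a mouse of its own. The p-values therefore rest on sample-to-sample spread, some of which may be technical.

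Autophagy begins when the Ulk1 or Ulk2 kinase complex with Atg13 activates a lipid kinase complex containing Becn1 and Atg14. A double membrane then grows, LC3 and GABARAP proteins are attached to it by Atg7, Atg5, Atg12 and Atg16l1, and the closed vesicle fuses with a lysosome, where acid hydrolases work. AMPK is known to phosphorylate Ulk1 and Becn1, which is control of protein activity and need not alter RNA. Transcription of many of these genes is driven by TFEB and its relatives, which bind a DNA element around the letters TCACGTGA, and fasting is known to raise autophagy in the liver.

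Among the members, the TFEB-type element was found in promoters of the lysosomal and pump groups. RefSeq promoters (GRCm38.p6, 250 bases before to 50 after the start, both strands, as TCACGTGA reads the same on each) were held for 29 of the 37 symbols. TCACGTGA occurred for 5 of these 29 (17.2%), against 1.12% of 27025 genes with an entry: Ctsd, Gla and Mcoln1 of 10 lysosomal genes, Atp6v0d1 and Atp6v1a of 5 pump genes, and none of 14 autophagy genes. The shorter letters CACGTG, which lie within TCACGTGA, occurred for 11 of 29 (37.9%) against 8.09%. In further lists of these pathways, TCACGTGA occurred for 2 of 24 other autophagy genes (8.33%, Atg3 and Nrbf2) and 0 of 15 autophagy receptors. It occurred for 1 of 31 other lysosomal hydrolases (3.23%) and 5 of 24 genes of lysosomal membrane, cofactors and sorting (20.8%). For other pump subunits and assembly factors it was 2 of 19 (10.5%), and for the TFEB family list 0 of 11. The stretches around the element are shown for the 4 measured members that carry it, so that each sequence can be read beside the RNA value of its gene. Capitals mark TCACGTGA, and each line runs 5′ to 3′ on the strand of the gene.
Mcoln1 (chr8:3500437-3500516, plus strand): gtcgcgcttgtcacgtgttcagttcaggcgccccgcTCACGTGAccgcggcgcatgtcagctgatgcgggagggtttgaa
Gla (chrX:134601190-134601255, minus strand): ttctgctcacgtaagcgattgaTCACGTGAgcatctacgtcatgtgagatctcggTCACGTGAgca
Atp6v0d1 (chr8:105566025-105566104, minus strand): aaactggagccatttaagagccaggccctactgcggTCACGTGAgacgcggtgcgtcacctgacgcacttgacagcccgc
Atp6v1a (chr16:44139348-44139427, minus strand): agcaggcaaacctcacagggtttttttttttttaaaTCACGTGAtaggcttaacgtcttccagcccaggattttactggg
The element began at position -46 from the start for Mcoln1, -4 for Atp6v0d1 and -132 for Atp6v1a, and Gla held it 2 times, first at -228. In knockout livers these 4 genes differed from control by -0.04 ± 0.07 (Mcoln1), -0.05 ± 0.10 (Gla), 0.06 ± 0.07 (Atp6v0d1) and 0.01 ± 0.10 (Atp6v1a) on the log2 scale (SE), and none passed the test. No TCACGTGA was in the promoter entries of Neu1 or Sqstm1, described below; Atp6v0d2 had no entry.

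Values are log2 intensities, and every difference is knockout minus control on the log2 scale with its SE. By clustering, the arrays formed 2 sets of 3 control and 4 knockout samples each, for which no label was found. Over rows other than the members, 2 arrays of one set correlated at 0.988 to 0.994, and 2 arrays of different sets at 0.951 to 0.963. Control 1 to 3 and knockout 1 to 4 formed set 1, and control 4 to 6 and knockout 5 to 8 set 2. The test was limma with the set as a term, with p-values adjusted by Benjamini-Hochberg over all 19505 genes and a threshold of 0.05. In this fit the targeted genes fell, Prkaa2 by 1.13 ± 0.08 (adjusted p = 1.92e-06) and Prkaa1 by 0.67 ± 0.13 (adjusted p = 0.0302), with all 8 knockout samples below every control of their set for both. Without control 1 and control 4, an omission described under processing, the adjusted p of Prkaa1 was 0.124. Which part of each gene its row covers is not known here. Markers of hepatocytes averaged 12.5 to 13.0 per array, near the top of the table at 13.8.

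Across the members, 1 of 35 passed the test: Atp6v0d2, a pump subunit, fell. Of all genes 0.702% passed, 0.431% higher and 0.272% lower. The other 34 members lay between -0.26 and 0.20, and all 34 differed by less than 0.3 in size, as did 18730 of 19505 genes. The median difference over the 35 was 0.00, with 18 higher and 17 lower, against a median of 0.00 and 50.6% higher over all genes. At an unadjusted p under 0.05 there were 4 members, Sqstm1 and Wipi2 higher and Neu1 and Atp6v0d2 lower. Over all genes the share was 10.4% (5.53% higher, 4.83% lower), so 4 of 35 is near the background. For 33 of 35 members the 95% interval lay within 1.5-fold either way (95.8% of all genes); the exceptions were Atp6v0d2 and Gpnmb. In limma without the set term 0 members and 0 of all genes passed, with 655 genes (3.36%) at an unadjusted p under 0.05.

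**Figure D1:**
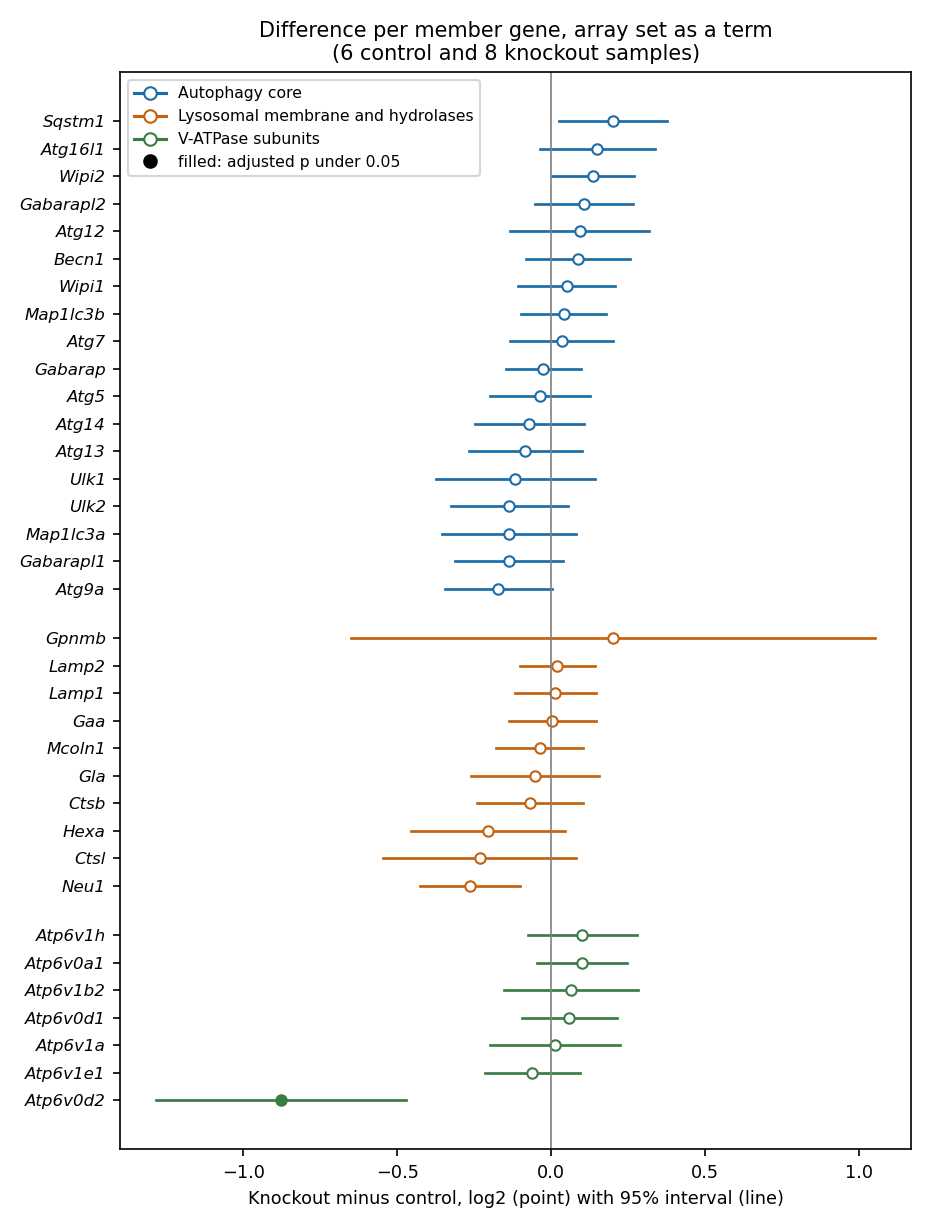
Knockout minus control for each of the 35 measured members on the log2 scale (horizontal axis), points with 95% intervals from limma with the array set as a term, coloured by group and filled where the adjusted p is under 0.05. Atp6v0d2 at -0.88 stands alone, and the widest interval is that of Gpnmb, from -0.65 to 1.05.

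The autophagy core genes had a median difference of 0.00, with 9 of 18 higher, 9 lower and none past the threshold. Ulk1, the kinase that AMPK phosphorylates, read 6.27, 6.44 and 6.44 in the controls of set 1 and 6.33, 6.26, 6.27 and 6.38 in its knockout samples. In set 2 the controls read 6.94, 7.75 and 7.18 and the knockout samples 6.96, 6.79, 7.38 and 7.39. The groups overlapped in both sets, and the difference was -0.12 ± 0.12 (95% interval -0.37 to 0.14; adjusted p = 0.820). Its relative Ulk2 differed by -0.14 ± 0.09 and their partner Atg13 by -0.08 ± 0.09. Becn1 and Atg14, of the lipid kinase complex, differed by 0.09 ± 0.08 and -0.07 ± 0.08.

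Sqstm1 encodes p62, a receptor that carries ubiquitinated cargo into the vesicle and is degraded with it; its gene is also a target of the stress factor NRF2. It had the smallest p of the autophagy group. Controls of set 1 read 10.36, 10.09 and 10.04 and knockout samples 10.23, 10.39, 10.21 and 10.19. In set 2 the controls read 10.43, 10.42 and 10.22 and the knockout samples 10.56, 10.54, 10.70 and 10.87. All 4 knockout samples of set 2 were above its controls, while in set 1 only knockout 2 was. The difference was 0.20 ± 0.08 and did not pass (adjusted p = 0.385), with 0.09 in set 1 and 0.31 in set 2. For a split within 1 set, here and for genes below, the share over all genes was not computed. The same holds for counts of only some knockout samples beyond the controls. With so few samples per set such patterns can arise by chance, and they are given as description only.

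The membrane growth genes did not pass either. Wipi2, which reads the lipid signal on the growing membrane, ran from 8.55 to 8.996 with a median of 8.76 in controls and from 8.65 to 9.10 with a median of 8.88 in knockout samples. Its set 1 means were 8.59 ± 0.06 in controls (SD, n = 3) against 8.75 ± 0.08 in knockout samples (SD, n = 4). Its set 2 means were 8.92 ± 0.07 in controls (SD, n = 3) against 9.03 ± 0.08 in knockout samples (SD, n = 4), and 5 of 8 knockout samples were above every control of their set. Its difference was 0.14 ± 0.06 (adjusted p = 0.466), and that of Wipi1 was 0.05 ± 0.07. Atg9a, a membrane protein of the vesicles that seed the structure, read 8.21, 8.19 and 8.35 in the controls of set 1 and 8.11, 8.02, 7.86 and 7.75 in its knockout samples. There all 4 knockout samples were below the controls. In set 2 the controls read 9.05, 9.30 and 9.16 and the knockout samples 9.19, 9.22, 9.13 and 9.06, all within the range of the controls. The difference over both sets was -0.17 ± 0.08 (adjusted p = 0.492), -0.32 in set 1 and -0.02 in set 2, and the gap between these did not pass the interaction test (0.30 ± 0.15, adjusted p = 0.998).

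None of the genes whose proteins attach LC3 to the membrane passed: Atg5 at -0.04 ± 0.08, Atg7 at 0.03 ± 0.08, Atg12 at 0.09 ± 0.11 and Atg16l1 at 0.15 ± 0.09. Without control 1 and control 4 Atg16l1 was at 0.27. For Atg12, 6 of 8 knockout samples were above every control of their set and 1 was below. Of the LC3 and GABARAP proteins themselves, Map1lc3b, whose protein is a common marker of the vesicles, ran from 9.89 to 10.71 in controls (median 10.33) and from 9.93 to 10.85 in knockout samples (median 10.36). It differed by 0.04 ± 0.07 (adjusted p = 0.904). Gabarap differed by -0.03 ± 0.06, Gabarapl1 by -0.14 ± 0.08 and Gabarapl2 by 0.11 ± 0.08. Map1lc3a was 0.07 in set 1 and -0.35 in set 2, with the smallest interaction p of the members (unadjusted p = 0.0370, adjusted p = 0.998 in limma). It read 9.70, 9.92 and 9.70 in the controls and 9.85, 9.79, 9.65 and 10.10 in the knockout samples of set 1. In set 2 the controls read 8.16, 8.37 and 8.09 and the knockout samples 7.71, 8.09, 7.92 and 7.73, with all 4 below the lowest control, by little for knockout 6.

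**Figure D2:**
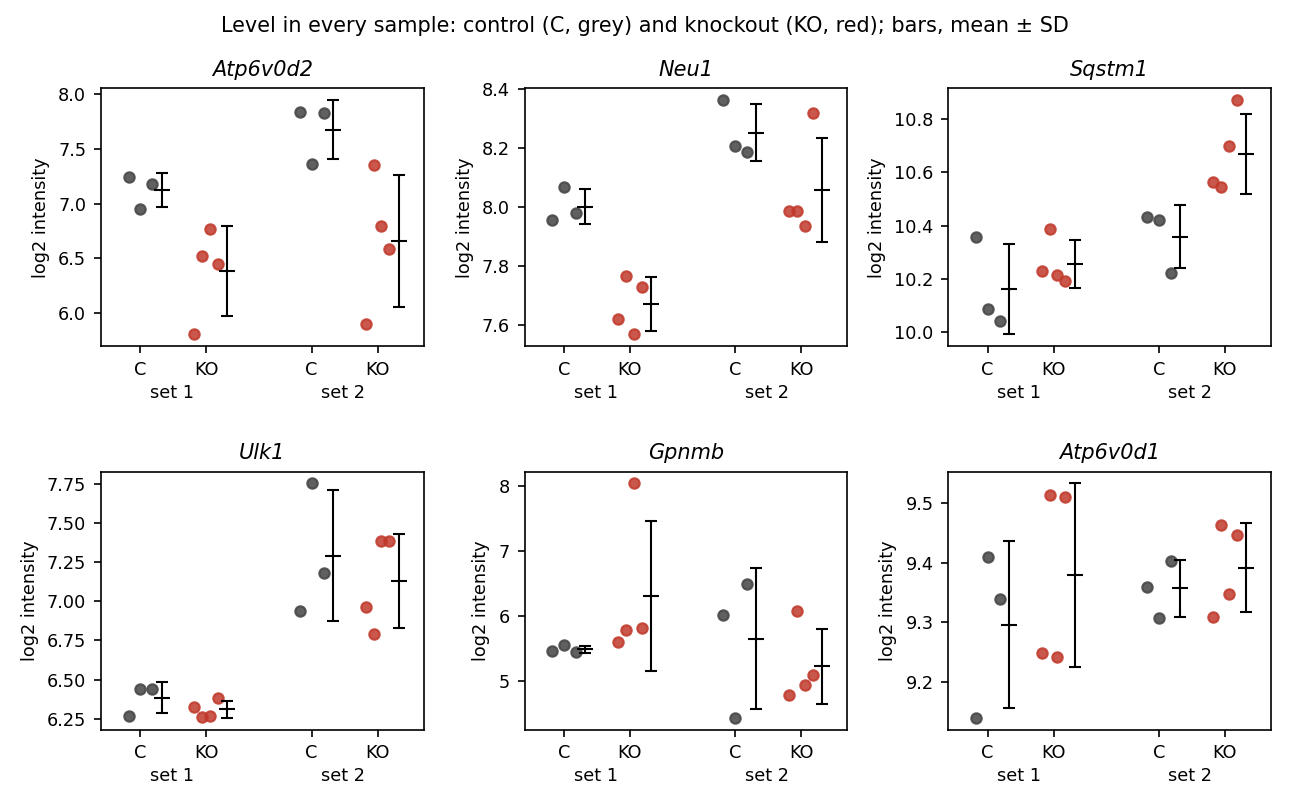
Log2 intensity (vertical axes) of 6 members in every control (grey, C) and knockout (red, KO) sample of each array set, with mean ± SD beside the points. For Atp6v0d2 every knockout sample lies below the controls of its set, for Neu1 7 of 8 do, and for Gpnmb knockout 3 at 8.03 stands far above the rest.

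The lysosomal group had a median difference of -0.05, with 4 of 10 higher and 6 lower, and none passed. Neu1, the lysosomal sialidase that removes sialic acid from glycoproteins, came nearest. It read 7.95, 8.07 and 7.98 in the controls of set 1 and 7.62, 7.76, 7.57 and 7.73 in its knockout samples. In set 2 it read 8.36, 8.21 and 8.19 in controls and 7.98, 7.98, 7.93 and 8.32 in knockout samples. Thus 7 of 8 knockout samples were below every control of their set, the exception being knockout 8. The difference was -0.26 ± 0.08 (95% interval -0.42 to -0.10; adjusted p = 0.156), -0.33 in set 1 and -0.20 in set 2. Leaving out any 1 array gave -0.31 to -0.24 and an adjusted p between 0.0573 and 0.312, so it passed in none of these fits.

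Hexa, the alpha subunit of the hexosaminidase that breaks down gangliosides, differed by -0.21 ± 0.12 (adjusted p = 0.597). It ran from 8.44 to 9.70 in controls (median 9.12) and from 8.00 to 9.68 in knockout samples (median 8.94). Ctsl, a cysteine protease of the lysosome, ran from 11.18 to 12.19 in controls (median 11.60) and from 10.75 to 11.90 in knockout samples (median 11.36). Its difference of -0.23 ± 0.15 did not pass (adjusted p = 0.647), and it was -0.05 without control 1 and control 4. Ctsb, another cysteine protease, differed by -0.07 ± 0.08. The groups of all these genes overlapped.

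The lysosomal membrane proteins Lamp1 and Lamp2, its most abundant glycoproteins, differed by 0.01 ± 0.06 (adjusted p = 0.973) and 0.02 ± 0.06 (adjusted p = 0.953). Lamp1 ran from 11.36 to 11.86 in controls (median 11.63) and from 11.46 to 11.86 in knockout samples (median 11.60), nearly the same range. The 95% interval of Lamp1 was -0.12 to 0.14. The calcium channel gene Mcoln1 and the hydrolase gene Gla are given with their promoters above, and Gaa, the enzyme that breaks down glycogen in lysosomes, was at 0.00 ± 0.07.

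Gpnmb, a glycoprotein known from lipid-laden macrophages, had the largest spread. It read 5.46, 5.54 and 5.43 in the controls of set 1 and 5.60, 5.78, 8.03 and 5.81 in its knockout samples. In set 2 the controls read 6.01, 4.42 and 6.49 and the knockout samples 4.78, 6.06, 4.94 and 5.09. All 4 knockout samples of set 1 were above its controls, and in set 2 the groups overlapped. The difference was 0.20 ± 0.40 (adjusted p = 0.930), and -0.11 without knockout 3. Its mean over all arrays, 5.67, was below every array median (5.73 to 5.87), so its row may lie near the background, whose level is not known here. In knockout 3 Trem2, a receptor of the same macrophages, read 6.65, the highest of all 14 arrays. Trem2 was nearly as high in knockout 4 (6.56) and control 2 (6.48), where Gpnmb read 5.81 and 5.54. The mean of 5 measured lipid-associated macrophage markers was 6.82 in knockout 3. It was 6.14 to 6.57 in the other knockout samples of set 1 and 6.18 to 6.54 in its controls. In set 2 the marker mean was 6.01 to 6.49 in knockout samples, highest in knockout 6, and 5.97 to 6.06 in controls. Against the control mean of its set, knockout 6 was 0.48 higher and knockout 3 was 0.49 higher. Gpnmb in knockout 6, at 6.06, lay within the range of its controls. These markers include Lpl, which was above every control of its set in all 8 knockout samples, as were 0.774% of all genes. Lpl did not pass (adjusted p = 0.0604 in limma). Of the 5 markers 4 were higher and 1 lower in knockout samples, and none passed. The part of such cells in the Gpnmb value was not tested.

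The V-ATPase has a membrane sector (V0), through which protons pass, and a soluble sector (V1), which splits ATP. Atp6v0d2 encodes the d2 form of the V0 subunit that links the sectors, known from osteoclasts and macrophages, while Atp6v0d1 encodes the widely expressed d1 form. Atp6v0d2 read 7.24, 6.95 and 7.18 in the controls of set 1 and 5.81, 6.53, 6.77 and 6.44 in its knockout samples. In set 2 the controls read 7.84, 7.36 and 7.83 and the knockout samples 5.90, 7.35, 6.79 and 6.58. Every knockout sample was below every control of its own set, though knockout 6 by little. Of all genes 0.538% had this pattern, 0.774% the opposite one and 1.31% either; no member had the opposite one. Set 1 had a control mean of 7.12 ± 0.15 (SD, n = 3) and a knockout mean of 6.39 ± 0.41 (SD, n = 4). Set 2 had a control mean of 7.68 ± 0.27 (SD, n = 3) and a knockout mean of 6.66 ± 0.60 (SD, n = 4).

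Atp6v0d2 thus fell by 0.88 ± 0.19 in limma with the set as a term (95% interval -1.28 to -0.47; adjusted p = 0.0454), to 54.5% of the control level. The difference was -0.74 in set 1 and -1.02 in set 2, and the gap between them did not pass the interaction test (-0.28 ± 0.39, adjusted p = 0.998). It ranked 130 by p among all genes, near the edge of the 137 that passed, and the call was not firm. It was kept without knockout 3 or knockout 6 and lost without any of the other 12 arrays, with differences from -0.98 to -0.75 and adjusted p from 0.0250 to 0.117. It was also lost without the set term (adjusted p = 0.547) and without both control 1 and control 4 (-0.81, adjusted p = 0.183). Those controls had the highest Atp6v0d2 values in their sets, so that omission had to shrink the difference. Of all genes, 44 to 132 passed without 1 array, 0 without the set term and 26 without control 1 and control 4.

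In whole tissue, fewer cells of a type and less RNA per cell cannot be told apart. None of 11 measured macrophage and Kupffer cell markers passed, and 10 were higher and 1 lower in knockout samples. The median of the 11 was 0.05, and -0.14 without control 1 and control 4. Those controls had the lowest means of these markers in their sets. Omitting them therefore lowers the mean difference of the list by construction, and nothing is drawn from the change of sign. Their mean per array ran from 8.15 to 9.09 in the controls and 8.26 to 9.15 in the knockout samples of set 1, and from 8.36 to 8.78 and 8.41 to 9.04 in set 2. The pan-macrophage genes Adgre1, the 1 lower marker, and Csf1r differed by -0.11 ± 0.17 and 0.01 ± 0.14. The 11 markers ran from -0.11 to 0.22, with Clec4f at 0.12 ± 0.17. Knockout 1 and knockout 5, the lowest for Atp6v0d2, had the lowest marker means among the knockout samples of their sets. Control 1 and control 4 had the lowest marker means and the highest Atp6v0d2 values among the controls of their sets. They also had the lowest means of liver endothelium markers among these controls, so their low marker means were not particular to macrophages. The part of macrophages in the Atp6v0d2 value was not tested.

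None of the other 6 pump subunits passed. The d1 gene Atp6v0d1 read 9.14, 9.41 and 9.34 in the controls and 9.25, 9.51, 9.24 and 9.51 in the knockout samples of set 1. In set 2 it read 9.36, 9.31 and 9.40 in controls and 9.31, 9.46, 9.35 and 9.45 in knockout samples, and the groups overlapped in both sets, with 4 of 8 knockout samples above every control of their set. Atp6v0a1, of the V0 sector, ran from 7.53 to 8.68 in controls (median 8.04) and from 7.51 to 8.82 in knockout samples (median 8.19), a difference of 0.10 ± 0.07 (adjusted p = 0.683). For it 6 of 8 knockout samples were above every control of their set, with means of 7.61 in controls and 7.65 in knockout samples of set 1 and of 8.58 and 8.74 in set 2. Atp6v1h, a regulatory V1 subunit, ran from 8.30 to 9.22 in controls (median 8.76) and from 8.33 to 9.38 in knockout samples (median 8.95), a difference of 0.10 ± 0.08 (adjusted p = 0.748), with 4 of 8 knockout samples above every control of their set. Of the other V1 subunits, Atp6v1b2 differed by 0.06 ± 0.10 and Atp6v1e1 by -0.06 ± 0.07, with Atp6v1a given above. With Atp6v0d2 the 7 pump genes had a median of 0.06, 5 higher and 2 lower, and of -0.07 without control 1 and control 4.

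**Figure D3:**
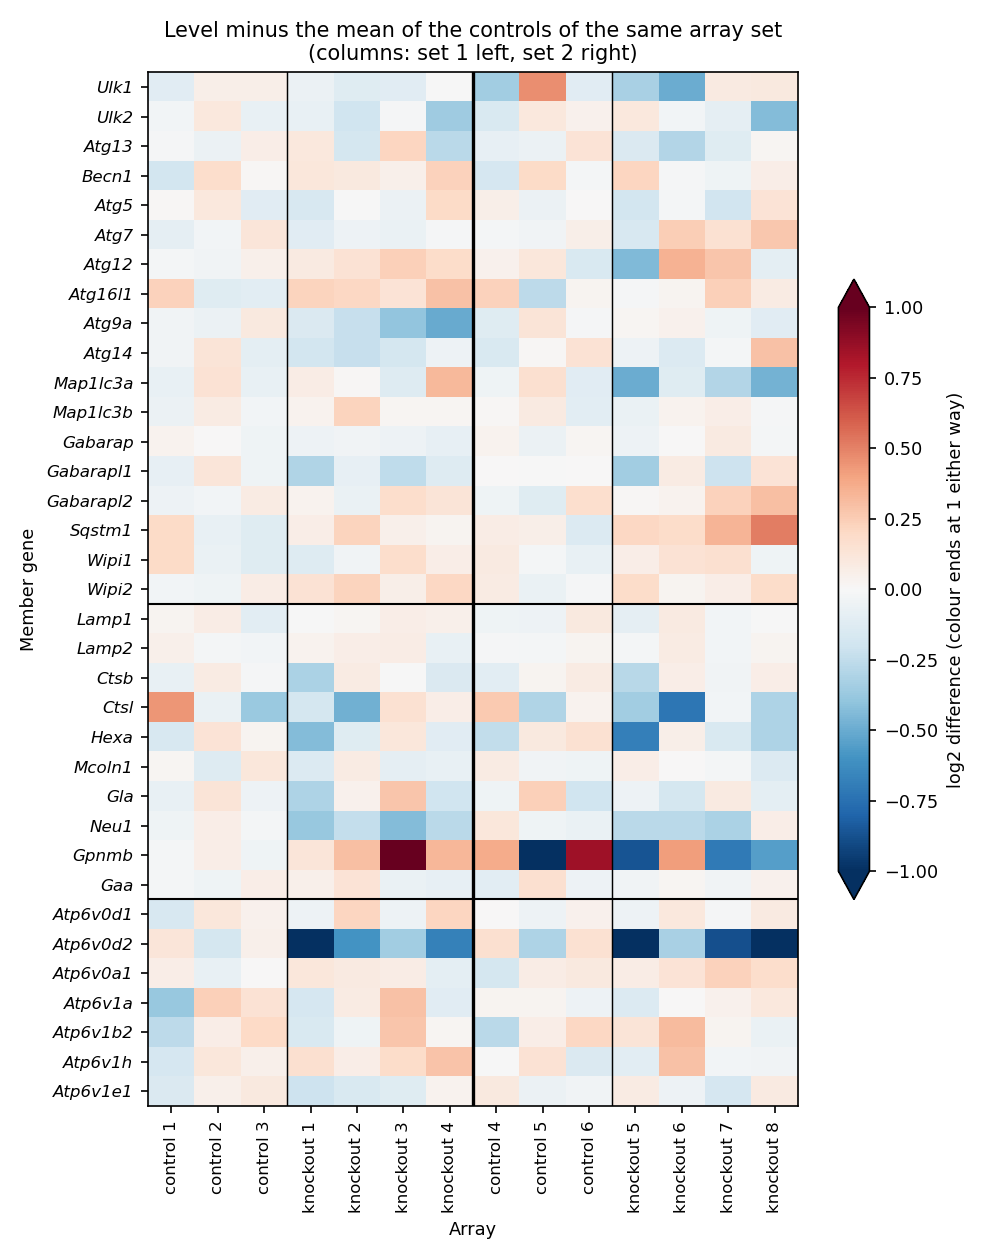
Log2 level of each of the 35 members (rows, in the order autophagy core, lysosome, V-ATPase) in each of 14 arrays (columns), minus the mean of the controls of the same array set; red is higher and blue lower, and the colours end at 1. Atp6v0d2 is blue in all 8 knockout columns, Neu1 in 7, and Gpnmb is mixed.

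For 7 of 35 members the set means lay over 1 apart (11% of all genes): Map1lc3a (-1.81, set 2 minus set 1), Gabarapl2 (-1.74), Atp6v1e1 (-1.59), Gaa (1.29), Atg7 (1.21), Atg9a (1.09) and Atp6v0a1 (1.04). What separates the sets was not tested. Within the sets, knockout differences had opposite signs for 7 of 35 members, Atg7, Atg14, Map1lc3a, Gabarap, Lamp1, Gpnmb and Gaa, against 44.7% of all genes. No member passed the interaction of knockout and set, nor did any of all genes (4.83% at an unadjusted p under 0.05).

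**Figure D4:**
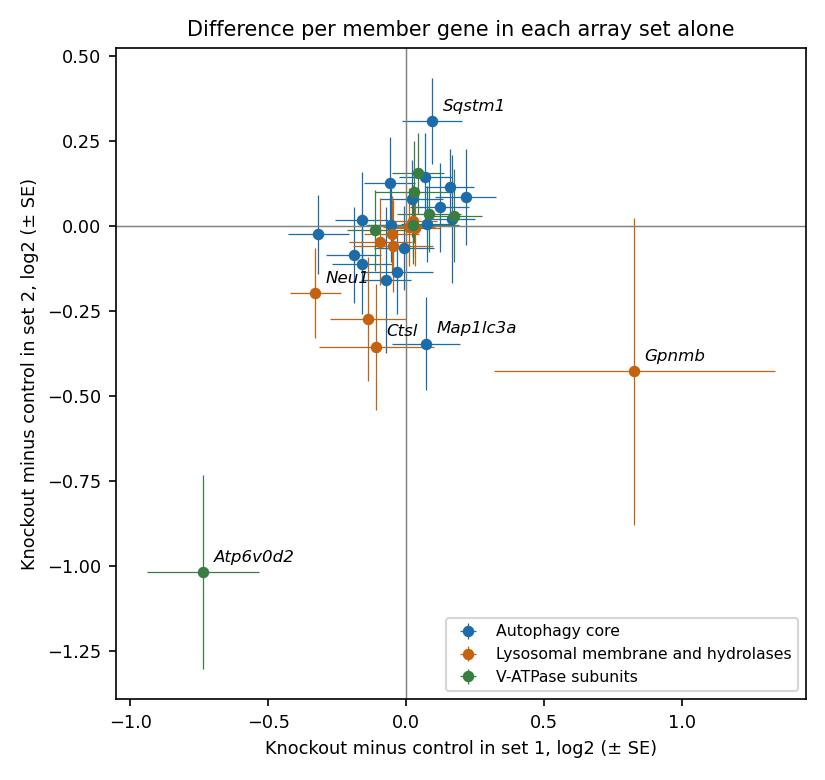
Knockout minus control (log2 ± SE) for each member in set 1 (horizontal) and set 2 (vertical) fitted alone. Most members crowd around 0; Atp6v0d2 is at -0.74 and -1.02, and Gpnmb at 0.83 and -0.43.

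Of 140 further genes of these pathways 1 passed, near the background of 0.702% of all genes. It was Ctsz, a lysosomal carboxypeptidase, which fell by 0.28 ± 0.06 (adjusted p = 0.0439). Controls read 10.88, 10.99 and 10.97 in set 1 and 10.62, 10.72 and 10.73 in set 2. Knockout samples read 10.75, 10.75, 10.64 and 10.74 in set 1 and 10.29, 10.31, 10.38 and 10.43 in set 2, each below every control of its set. The call was lost without any 1 array (adjusted p from 0.0594 to 0.112). Ctsz is one of 34 other lysosomal hydrolases, of which 24 were lower and 10 higher with a median of -0.06, against 50.6% higher over all genes. At an unadjusted p under 0.05, 4 of them were lower (Ctsz, Ctsa, Ctsc and Naglu, the last 3 named after their values were seen) and 1 higher (Acp2, likewise). Over all genes these shares were 4.83% lower and 5.53% higher.

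No gene passed in the other lists. The gene with the smallest p was Nrbf2 of 27 other autophagy genes (0.25 ± 0.08, adjusted p = 0.241), a partner of the lipid kinase complex. It was Retreg1, a receptor for endoplasmic reticulum, among 14 autophagy receptors (-0.29 ± 0.09, adjusted p = 0.186). Among 30 genes of lysosomal membrane, cofactors and sorting it was Npc2, which carries cholesterol inside lysosomes (-0.31 ± 0.08, adjusted p = 0.111). Among 24 other pump subunits and assembly factors it was Atp6v0a2 (0.17 ± 0.07, adjusted p = 0.365). The TFEB family with lysosomal mTORC1 control, 11 genes, had 3 higher and 8 lower with a median of -0.11, and Flcn, which holds TFEB relatives in check at the lysosome, was at -0.39 ± 0.11 (adjusted p = 0.128). With the trend and robust options of eBayes, Retreg1 (adjusted p = 0.0399) and Flcn (adjusted p = 0.0367) passed. In that setting 325 of 19505 genes passed, against 137 in the main fit.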

How the data were processed

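The deposited values are log2 intensities of Affymetrix gene arrays after WT PLUS labelling, 1 row per probe set. Per the submitters' processing notes RMA and Partek were used, with no versions, and the log2 scale was inferred from the values (2.13 to 13.8). The genome build is not given in the sources used here. Arrays give no read depth, and their number limits the precision.

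Of 22206 rows, 19572 were joined to 1 gene symbol by gene identifier (RefSeq, GRCm38.p6, names only), and 2634 were not named here. For 55 genes with several rows the row with the highest mean was used, leaving 19505 genes without a filter. Each measured member had 1 row. No 2 arrays held identical values.

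Array sets came from average-linkage clustering of array correlations over rows other than the members. The model, fitted in R 4.3.3 by limma 3.58.1 (lmFit, then eBayes), held group and set and left 11 residual degrees of freedom. The fit was tested on simulated data. The members, lists and tests were chosen with earlier results of these data known. Named were members past 0.05, the 3 with the smallest p per group, Ulk1, Sqstm1, Map1lc3b, Gpnmb, Atp6v0d2, Lamp1, Ctsd (not analysed here) and, from other lists, up to 4 genes past the threshold or else the 1 with the smallest p. Genes outside this rule are given with their group or beside the result they touch. Since knockout 7 and 8 carry in their descriptions the same numbers as knockout 5 and 6, alternatives averaged or omitted them. Another alternative omitted control 1 and control 4, which no label sets apart. Among the controls of their sets they had the lowest means of macrophage and endothelial markers and the highest Atp6v0d2 values. Their omission must therefore shrink the Atp6v0d2 difference and lower the mean differences of those markers, and it is no neutral check for them.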

Additional observations from a re-analysis of the deposited data

Results flagged for a closer look

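Single arrays stood apart for 4 member values, among 140 groups of values tested by the gap to the nearest sample over the range (95% level), where chance gives about 1 in 20. Gpnmb in knockout 3 was 8.03, far above the other knockout samples of set 1. Map1lc3b in knockout 2 was 10.85, above the other knockout samples of set 1. Neu1 in knockout 8 was 8.32, above the other knockout samples of set 2. Atg7 in knockout 5 was 8.42, the lowest among all knockout samples once set means were removed.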

How the results depend on the processing

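The count of members called by limma, 1 of 35 and 1 of 7 pump subunits (Atp6v0d2), was 0 without the set term, in set 1 alone, in set 2 alone, with array weights, without knockout 7 and 8, without control 1 and control 4, and at a threshold of 0.01. Leaving out 1 array at a time gave 0 to 1. It stayed 1 with eBayes options trend and robust, median centring, quantile normalization, the filter on dim genes, knockout 5 averaged with 7 and 6 with 8, the mean of all rows, and a threshold of 0.1. The replicate block gave 0 in place of the set term and 0 beside it. Arrays of the same number shared little beyond group and set: deviations from the means of both correlated at 0.02 to 0.09. From group means alone they correlated at -0.70 for number 4, whose arrays lie in different sets, and at 0.70 to 0.76 for the others. Within sets, 0 of 6 controls correlated best with the knockout array of their own number. Whether the numbers stand for a pairing of the samples is not known here. Over 28 alternatives, Atp6v0d2 kept its direction in all and its call in 8, and no other member was called. Of 980 values of all 35 members, 40 had the other sign (15 members, none over 0.20 in size). Over all 19505 genes the count passing was 137 in the main fit, 0 without the set term and 2 in each set alone. It was 135 with array weights, 12 without knockout 7 and 8, and 26 without control 1 and control 4. Leaving out 1 array gave 44 to 132 genes. The replicate block gave 1 gene in place of the set term and 2 beside it. Averages and omissions of arrays also shrink the sample, and the causes of lost calls were not tested.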
